A study of Mus musculus with 112 samples.

Results

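The 20 liver arrays titled as high-fat diet (HFD) were compared, 10 labelled Ala/Ala and 10 labelled Pro/Pro, out of 40 liver, 37 fat and 35 muscle arrays in the series. They were picked by the tissue, diet and genotype in the sample titles. Ala/Ala mice carried the Pro12Ala knock-in of Pparγ on both chromosomes, and Pro/Pro mice were their wild-type littermates. All were males that started the diet at 8 weeks of age. The series text gives 15 weeks of diet and a feed of 5560 kcal/kg, whereas the sample descriptions give 12 weeks and a feed with 41% milk fat and 43% carbohydrate, so length and feed are uncertain. A further 10 Ala/Ala and 10 Pro/Pro liver arrays came from mice kept on chow, and epididymal fat and gastrocnemius muscle of many same-numbered mice were also measured. Each value sets 1 mouse against a pool computed from the HFD Pro/Pro arrays of the same tissue, as a ratio given here on the log2 scale, so 0 is the mean of that group before logs and a level in the tissue cannot be read from it. Because the pool is a mean of unlogged ratios, a gene that is very high on 1 pool array has log2 ratios below 0 on most others. Replicates are separately numbered mice.

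PPARγ is a nuclear receptor that pairs with RXR on DNA and turns on genes of fatty acid uptake and storage. It is abundant in fat cells, scarce in a lean liver, and higher in the fatty liver of mice, where it drives lipid droplet genes such as Cidec. Position 12 lies in the N-terminal stretch found only in the PPARγ2 form, which activates transcription without ligand, and the Ala form is a weaker activator in reporter assays. The comparison asks whether livers of mice with this receptor differ from wild-type livers under a fat-rich diet.

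The labels of the liver arrays are set against the other tissues first. In fat and muscle, 50 genes followed the animal, in that the 2 arrays of 1 mouse deviated together from their group means (median r 0.731, 0.66 to 0.88, 31 mice), and these genes were chosen for that property. They include the clock genes Per1, Per2, Dbp, Ciart and Arntl, the glucocorticoid target Fkbp5, the interferon-induced GTPase Tgtp1 and Erdr1. Between liver and fat the same 50 genes had a median r of -0.116 (-0.47 to 0.39, 36 mice), and between liver and muscle -0.042 (-0.39 to 0.44, 35 mice). Across these genes the muscle array of the same number was the best match of a fat array in 30 of 31 mice, which their choice favours. Over all genes it was the best match in only 1 of 31 mice, with 1 of 36 for liver and fat and 2 of 35 for liver and muscle, so the sharing lay in few genes. Between fat and muscle 34 genes had an r above 0.7, against 0 genes in either pair with liver, where the highest r of any gene was 0.63 with fat and 0.65 with muscle. Across the 50 genes the same-numbered array was the best match of a liver array in 0 of 36 mice for fat and in 1 of 35 for muscle. Erdr1 reached r = 0.85 between fat and muscle, against -0.04 between liver and fat and 0.13 between liver and muscle.

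**Figure D1:**
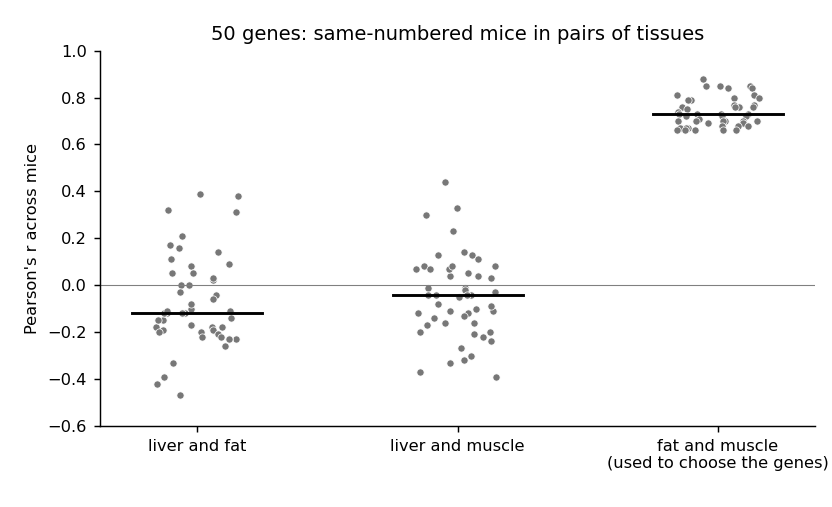
Pearson's r across same-numbered mice for 50 genes (points) in 3 pairs of tissues, after the group means were removed, with the median as a bar. The fat and muscle points were used to choose the genes and lie between 0.66 and 0.88, while both columns with liver scatter around 0 (medians -0.116 and -0.042).

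Transcripts that earlier results of these data showed to differ by genotype in fat or muscle did not separate the labelled liver groups. Since they were taken for that difference, liver minus fat or muscle partly restates it, and its p is given as a description of the gap between tissues. Bid, a pro-apoptotic Bcl-2 relative on chromosome 6, the chromosome of Pparg, lay between -0.75 and -0.25 in Ala/Ala fat (n = 8) and between -0.15 and 0.28 in Pro/Pro fat (n = 10), without overlap. In liver it ran from -0.76 to 0.93 (median 0.64) on arrays labelled Ala/Ala and from -1.08 to 0.92 (median -0.28) on arrays labelled Pro/Pro (n = 10 each). Both labelled liver groups therefore spanned nearly the same range. The labelled difference on HFD was 0.53 ± 0.24 in liver (SE; adjusted p = 0.520) and -0.52 in fat (adjusted p = 0.0138), and the liver minus fat difference of 1.05 ± 0.24 passed the test (adjusted p = 0.0189). Adjusted p-values of this and later tests come from limma, with Benjamini-Hochberg adjustment across all 16643 genes, and a gene was called at an adjusted p under 0.05.

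Apobec1, an RNA-editing enzyme that acts on the apolipoprotein B transcript and also lies on chromosome 6, ran from -1.39 to 0.54 (median -0.94) on liver arrays labelled Ala/Ala and from -1.15 to 1.23 (median -0.17) on those labelled Pro/Pro. It was -0.61 ± 0.25 in liver (adjusted p = 0.481) and 0.88 in fat (adjusted p = 0.0308), and liver minus fat was -1.49 ± 0.28 (adjusted p = 0.00356). Slc6a13, a GABA and taurine transporter, lay between -1.63 and -0.54 in Ala/Ala fat and between -0.41 and 0.40 in Pro/Pro fat. Its liver values overlapped, at -0.27 to 0.25 for arrays labelled Ala/Ala and -0.21 to 0.20 for arrays labelled Pro/Pro, and liver minus fat was 0.99 ± 0.13 (adjusted p = 5.92e-07). Hdhd5 lay between 0.31 and 0.58 in Ala/Ala muscle (n = 9) and between -0.20 and 0.13 in Pro/Pro muscle (n = 8). In liver it was -0.39 to 0.04 for arrays labelled Ala/Ala and -0.19 to 0.15 for arrays labelled Pro/Pro, which overlap and lean the other way (liver minus muscle -0.57 ± 0.09, adjusted p = 0.00015). In muscle the pool could not be checked from the values, so direction there rests on the labels.

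**Figure D2:**
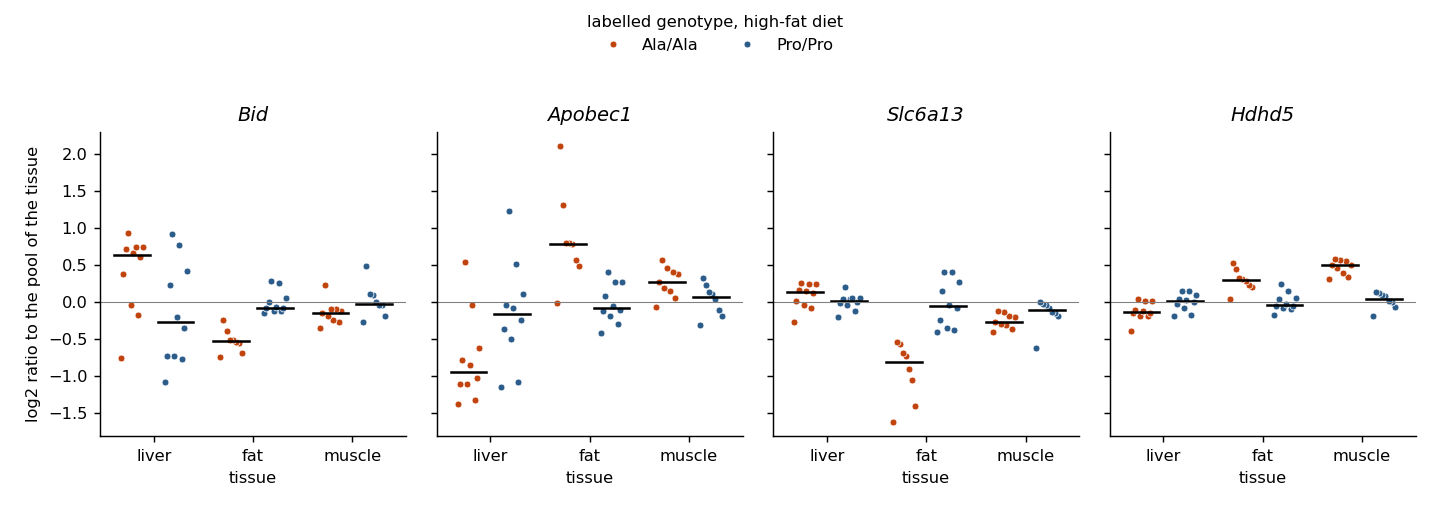
Log2 ratio to the pool of the tissue for Bid, Apobec1, Slc6a13 and Hdhd5 on each HFD array (points), by tissue and labelled genotype, with medians as bars. Ala/Ala and Pro/Pro separate for Bid and Slc6a13 in fat and for Hdhd5 in muscle, while the liver groups overlap for all 4 genes and Bid and Apobec1 lean opposite to fat.

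Over all genes the liver minus fat difference in the genotype contrast was called for 54 genes (0.324%), 27 of them higher in liver, and the liver minus muscle difference for 4 genes (0.024%), which were Hdhd5, Retnla, Sncg and Trarg1. Without the liver arrays of Mouse77, Mouse80 and Mouse143 the counts were 50 and 3. At a false discovery rate of 0.20 they were 914 (5.49%) and 10 (0.0601%). Among the 15 genes that earlier results of these data showed to differ by genotype in fat or muscle, 0 were called in liver and 8 of 15 differences were above 0. Dtna (0.64), Kdm5a (0.65), Ddo (0.58), Bcl2l13 (0.48) and Klra17 (-0.97) were also among the 54, each figure being the liver minus fat difference, with adjusted p of 0.00922, 0.00966, 0.0200, 0.0121 and 0.0269. For diet, HFD minus chow called 0 genes in liver, in Ala/Ala (471 at an unadjusted p under 0.05, 2.83%) as in Pro/Pro (989, 5.94%), against 27.4% of genes in Ala/Ala fat, 24% in Pro/Pro fat, 2.75% in Ala/Ala muscle and 1.77% in Pro/Pro muscle. Why the liver arrays did not share these signals with same-numbered arrays of the other tissues was not tested, and a lack of calls in liver is no value against a label. Every liver group below is a group as labelled, and the results hold for those labels.

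Per the titles the tissue was liver. The 12 measured hepatocyte markers, among them albumin, transthyretin and carbamoyl phosphate synthetase, had a mean level between -0.09 and 0.09 for arrays labelled Ala/Ala and between -0.13 and 0.07 for arrays labelled Pro/Pro. Alb differed by -0.01 ± 0.03 and Ttr by 0.01 ± 0.03. Ratios to a pool cannot show whether markers of another organ are absent. The 20 arrays had medians close to 0, their pairwise correlations ran from -0.387 to 0.562, and no pair was identical. The median SD of a gene was 0.169 over arrays labelled Ala/Ala and 0.183 over arrays labelled Pro/Pro.

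On HFD 0 of 16643 genes passed between the labelled genotypes in liver (0%). The smallest adjusted p was 0.164. At the false discovery rate of 0.20 that the series text names, 7 genes passed (0.0421%), 5 with higher ratios in Ala/Ala. At an unadjusted p under 0.05 there were 1483 genes (8.91%), 656 higher (3.94%) and 827 lower (4.97%), and the methods' t-test gave 0 genes after adjustment and 1491 before it. Chow gave 0 genes (1685 unadjusted, 10.1%, and 2 genes without Mouse109 or 1 without Mouse155), and the test of whether the genotype difference depends on diet gave 0 genes (612 unadjusted, 3.68%). The median standard error of a difference was 0.08. In simulated data with 200 of 16643 genes changed, 90% of the changes of 0.5 were found in this comparison, and 96% of those of 1. Both rates come from the same simulated set, in which the 200 changed genes held both sizes. Each rate is therefore an average over part of those genes. The rates may not hold with fewer changed genes, with changes of 0.5 alone, or for a gene with a larger standard error. Bid (0.53 ± 0.24), Fgf21 (-0.57 ± 0.32) and Clec2h (0.76 ± 0.53) were not called on HFD.

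Tbrg4, a regulator of mitochondrial RNA, had the smallest p. It lay between 0.18 and 0.73 (median 0.40) in Ala/Ala livers and between -0.47 and 0.24 (median 0.08) in Pro/Pro livers, so that 8 of 10 Ala/Ala arrays were above the highest Pro/Pro array. The difference was 0.43 ± 0.09 on HFD (adjusted p = 0.164) and 0.31 ± 0.09 on chow. Denr, a factor that recycles ribosomes after termination, was 0.11 to 0.55 (median 0.37) in Ala/Ala livers and -0.43 to 0.27 (median 0.01) in Pro/Pro livers, a difference of 0.36 ± 0.08 (adjusted p = 0.164). Hnrnpc, which binds nascent transcripts, averaged 0.24 ± 0.07 in Ala/Ala and -0.01 ± 0.17 in Pro/Pro livers (SD, n = 10 each; adjusted p = 0.164). These groups overlapped at their edges. The mitochondrial superoxide dismutase Sod2 differed by 0.23 ± 0.05 and the ubiquitin-conjugating enzyme Ube2d1 by 0.32 ± 0.07, both with an adjusted p of 0.193.

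Lower ratios in Ala/Ala livers were led by Rab9b, a small GTPase of endosomal traffic, at -0.46 to -0.07 in Ala/Ala and -0.11 to 0.13 in Pro/Pro livers (difference -0.28 ± 0.06, adjusted p = 0.164). Rmi2, a partner of the BLM helicase, differed by -0.27 ± 0.06 (adjusted p = 0.193), the transporter-like Svop by -0.31 ± 0.07 (adjusted p = 0.241), the DNA polymerase Poln by -0.25 ± 0.06 and the clone 9630015K15Rik by -0.19 ± 0.05 (adjusted p = 0.323 for both). Only 1 gene, Bfsp2, a lens filament protein, had groups that did not overlap (0.00601% of genes), at -0.39 to -0.11 in Ala/Ala and -0.10 to 0.12 in Pro/Pro livers. It was named after its values were seen, and its adjusted p was 0.381. Other probe sets of the leading genes gave smaller differences, of 0.06 and 0.13 for Tbrg4, 0.04 for Denr, 0.05 for Hnrnpc and 0.05 and 0.06 for Sod2.

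**Figure D3:**
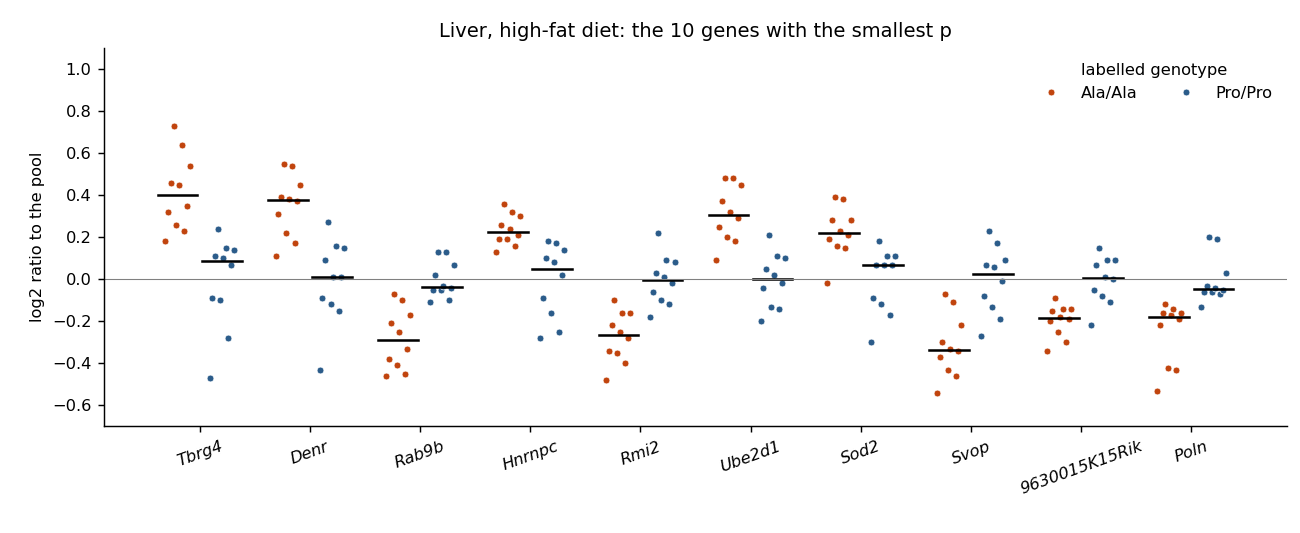
Log2 ratio to the pool for the 10 genes with the smallest p between labelled genotypes in HFD liver, 1 point an array and the median as a bar, Ala/Ala to the left of Pro/Pro. Tbrg4, Denr, Hnrnpc, Ube2d1 and Sod2 sit higher in Ala/Ala and the other 5 lower, with overlapping edges in every gene, and none passed at 0.05.

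Over both diets together, a contrast added after the data were seen, 19 genes passed (0.114%), 8 higher (0.0481%) and 11 lower (0.0661%) in Ala/Ala. Tbrg4 rose by 0.37 ± 0.06 (adjusted p = 0.00574) and Denr by 0.26 ± 0.05 (adjusted p = 0.0438). With probe sets averaged these were 0.185 ± 0.033 for Tbrg4 and 0.167 ± 0.035 for Denr, and both passed. Hoxb5os, an antisense transcript of the Hoxb cluster, fell by 0.33 ± 0.06 (adjusted p = 0.0169), and the urokinase receptor Plaur fell by 0.24 ± 0.05 (adjusted p = 0.0492). Lmnb2, a nuclear lamin, rose by 0.28 ± 0.06, and Mrps17, a protein of the mitochondrial ribosome, rose by 0.16 ± 0.04, both at an adjusted p of 0.0492. Without the arrays of Mouse77, Mouse80 and Mouse143 there were 21 calls, but Denr (adjusted p = 0.0508) and Lmnb2 (0.0675) no longer passed. After quantile normalization 6 genes passed, and Denr, Plaur, Lmnb2 and Mrps17 were not among them, while Tbrg4 (adjusted p = 0.00142) and Hoxb5os (0.0103) were. The genotype difference of Tbrg4 in HFD liver differed from that in fat, with liver minus fat at 0.51 ± 0.11 (adjusted p = 0.0152), and so did Rmi2 (-0.43 ± 0.10, adjusted p = 0.0242), Ube2d1 (0.38 ± 0.08, adjusted p = 0.0152) and Sod2 (0.41 ± 0.09, adjusted p = 0.0208). These 4 tests compare arrays by their labels. The 4 genes were taken for their small p in HFD liver, so the gap from fat partly restates that choice.

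Pparg itself ran from -0.61 to 0.52 (median 0.20) in Ala/Ala livers and from -1.34 to 0.70 (median -0.01) in Pro/Pro livers. The ranges overlapped almost wholly, with 2 Pro/Pro arrays below and 1 above the Ala/Ala range. The difference was 0.22 ± 0.22 (adjusted p = 0.791) on HFD and 0.15 ± 0.22 on chow. Without the array of Mouse143 the HFD difference was 0.088, and without that of Mouse95 it was 0.315. The probe set measures the amount of transcript and cannot read the exchanged base. In bulk RNA, fewer cells of a type and less RNA per cell cannot be told apart. Of Pparg, its RXR partners and its coregulators 0 of 19 measured genes passed and 12 differences were above 0 (median 0.017, beside 0 over all genes). The corepressor Ncor1 differed by 0.16 ± 0.10 (adjusted p = 0.621) and the corepressor Nrip1 by -0.15 ± 0.12 (adjusted p = 0.723). For Ncor1 the 5 other probe sets ran from -0.12 to 0.03.

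Among known PPARγ targets of fatty liver 0 of 18 measured genes passed, 9 differences lay on each side of 0, and the median was 0. Cidec, which enlarges lipid droplets, ran from -1.37 to 1.85 (median 0.12) in Ala/Ala and from -0.56 to 0.93 (median -0.14) in Pro/Pro livers. Its difference of 0.38 ± 0.35 (adjusted p = 0.774) was 0.14 ± 0.34 without the arrays of Mouse77, Mouse80 and Mouse143, which stand apart as described further on. Fabp4, a fatty acid carrier, differed by 0.19 ± 0.20, the triglyceride lipase Pnpla2 by 0.13 ± 0.10, the uncoupling protein Ucp2 by -0.13 ± 0.10 and the lipase inhibitor G0s2 by -0.46 ± 0.29. Other probe sets of Ucp2 gave -0.03 and 0.03. The fatty acid transporter Cd36 differed by 0.23 ± 0.27 and the droplet coat protein Plin2 by -0.09 ± 0.10. These values do not show that the targets are alike, since 1 standard error of Cidec is already 0.35.

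PPARα, the related receptor of hepatocytes, drives fatty acid oxidation and the fasting hormone FGF21. Of its targets 0 of 21 passed and 15 differences were below 0 (median -0.078). Fgf21 ran from -2.02 to 0.29 (median -0.64) in Ala/Ala and from -1.48 to 0.65 (median 0.10) in Pro/Pro livers, a difference of -0.57 ± 0.32 (adjusted p = 0.605) on HFD and -0.55 ± 0.32 on chow. Pdk4, the kinase that shuts pyruvate dehydrogenase, differed by -0.46 ± 0.37 and the acyl-CoA thioesterase Acot1 by -0.46 ± 0.35. Without the arrays of Mouse77, Mouse80 and Mouse143 these became -0.44 ± 0.35 for Fgf21, -0.34 ± 0.39 for Pdk4 and -0.26 ± 0.30 for Acot1. The enzymes of fatty acid oxidation themselves were tighter, with 0 of 24 called, 11 differences above 0, a range from -0.09 to 0.11, and Cpt1a, the gate into mitochondria, at 0.10 ± 0.10. Another probe set of Cpt1a gave -0.02. Acox2, which shortens bile acid precursors in peroxisomes, differed by 0.11 ± 0.06 (adjusted p = 0.606).

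De novo lipogenesis makes fatty acids from acetyl-CoA under SREBP1c and ChREBP. None of its 22 genes passed, 17 differences were above 0 and the median was 0.078, against -0.23 on chow. Acss2, which makes acetyl-CoA from acetate, averaged 0.32 ± 0.45 in Ala/Ala and -0.10 ± 0.57 in Pro/Pro livers (SD, n = 10 each), a difference of 0.42 ± 0.20 (adjusted p = 0.548). Acly, which splits citrate, differed by 0.38 ± 0.19, the acetyl-CoA carboxylase Acacb by 0.32 ± 0.16 and the lipogenic inducer Thrsp by 0.48 ± 0.33. On chow Acly was -0.39 ± 0.19 and Acacb -0.29 ± 0.16, and 0 of 22 genes passed the test of the difference between diets. The regulators Srebf1 (0.09 ± 0.19) and Mlxipl (-0.07 ± 0.12) and the synthase Fasn (0.15 ± 0.20) lay within about 1 standard error of 0 on HFD. The mean level of the list ran from -0.20 to 0.32 in Ala/Ala and from -0.59 to 0.37 in Pro/Pro livers.

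Cholesterol synthesis, the SREBP2 pathway that builds sterols from acetyl-CoA, was the only one of 34 lists whose measured members all leaned 1 way. All 19 differences were above 0 on HFD, from 0.02 in Tm7sf2 to 0.47 in Dhcr7, with a median of 0.222, and 0 of 19 passed. Without the arrays of Mouse77, Mouse80 and Mouse143 the median was 0.144 and 18 of 19 differences were above 0. On chow the median was -0.151, and 0 of 19 passed the test of the difference between diets. Dhcr7, the last step of the pathway, ran from -0.28 to 1.06 (median 0.38) in Ala/Ala and from -0.86 to 0.53 (median -0.03) in Pro/Pro livers, a difference of 0.47 ± 0.18 (adjusted p = 0.455). Pmvk, the phosphomevalonate kinase, averaged 0.34 ± 0.23 in Ala/Ala and -0.04 ± 0.35 in Pro/Pro livers (SD, n = 10 each), a difference of 0.38 ± 0.13 (adjusted p = 0.442). The cyclase Lss differed by 0.39 ± 0.18 and the mevalonate kinase Mvk by 0.22 ± 0.11. The members moved together from array to array, with a median pairwise r of 0.71 (0.15 to 0.96) over the 20 arrays after the group means were removed, so they are not 19 separate observations. The level of the whole list averaged 0.17 ± 0.35 (-0.45 to 0.59) in Ala/Ala and -0.06 ± 0.37 (-0.60 to 0.56) in Pro/Pro livers (SD, n = 10 each), with 1 Ala/Ala array above the Pro/Pro range and 2 Pro/Pro arrays below the Ala/Ala range. The difference of the means was thus smaller than either SD.

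**Figure D4:**
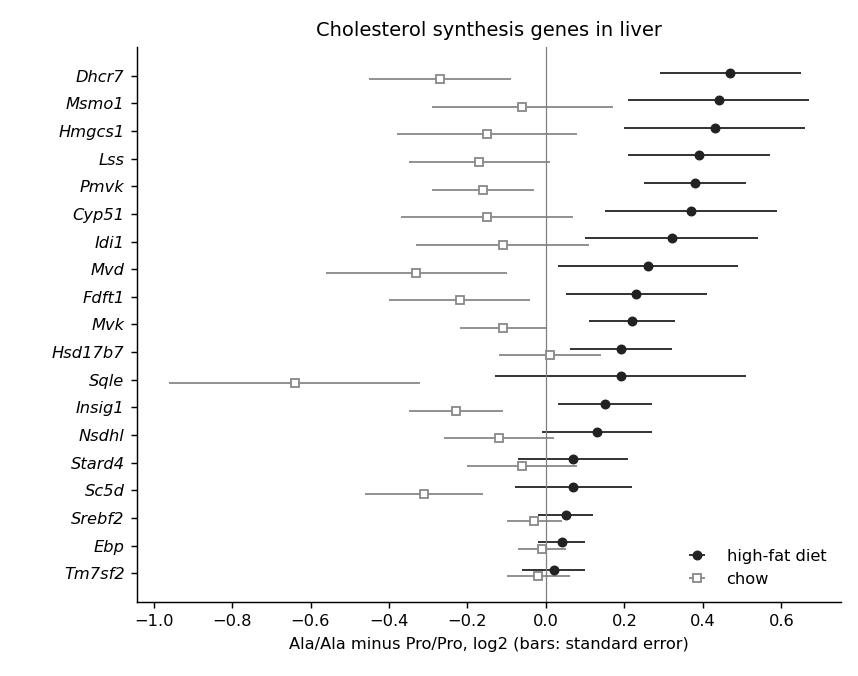
Ala/Ala minus Pro/Pro difference (log2) with its standard error for the 19 measured cholesterol synthesis genes in liver, on HFD (filled) and on chow (open), sorted by the HFD value. HFD values run from 0.02 to 0.47 and the chow median is -0.151, and 0 of 19 passed in either diet or in the test between diets.

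Genes of triglyceride synthesis and lipid droplets gave 0 of 26 calls, with 18 differences above 0 and a median of 0.038. Lpin3, a phosphatidate phosphatase, ran from -0.11 to 0.70 (median 0.26) in Ala/Ala and from -0.47 to 0.40 (median -0.02) in Pro/Pro livers, a difference of 0.29 ± 0.10 (adjusted p = 0.442). The final acyltransferase Dgat1 differed by 0.09 ± 0.06. Of the lipoprotein genes 0 of 21 passed and 14 differences were below 0, with a median of -0.009. Angptl8, an insulin-induced inhibitor of lipoprotein lipase, was at -0.96 to 0.30 (median -0.62) in Ala/Ala and -0.66 to 0.86 (median -0.07) in Pro/Pro livers (difference -0.48 ± 0.19, adjusted p = 0.466). The phospholipid transfer protein Pltp differed by 0.29 ± 0.20. Bile acid genes gave 0 of 22, with the conjugating enzyme Baat at 0.08 ± 0.06 and the phospholipid exporter Abcb4 at -0.12 ± 0.08.

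Genes of glucose handling and insulin signalling gave no calls either. Glycolysis and gluconeogenesis gave 0 of 19 calls (median 0.027), with pyruvate carboxylase Pcx at 0.11 ± 0.08 and the pyruvate dehydrogenase kinase Pdk2 at 0.19 ± 0.12. Insulin signalling gave 0 of 23 (median 0.052), with the stress sensor Sesn1 at 0.21 ± 0.11 and the kinase Gsk3b at -0.18 ± 0.11. Another probe set of Sesn1 gave 0.01, and 5 other probe sets of Gsk3b ran from -0.13 to 0.08. Oxidative phosphorylation had 24 of 30 differences above 0, but a median of only 0.033 and 0 calls, with Atp5o, a subunit of ATP synthase, at 0.15 ± 0.07 and Sdhc, a subunit of succinate dehydrogenase, at 0.09 ± 0.04. Ribosomal proteins gave 0 of 13 calls, with 5 differences above 0, up to 0.17, and a median of -0.007. Of these, Rpl5 was at -0.22 ± 0.08 (adjusted p = 0.444) and Rps18 at -0.19 ± 0.08. Cytochromes P450 gave 0 of 29 (median -0.007), with the female-biased Cyp2b13 at -0.20 ± 0.08 (adjusted p = 0.466), and the xenobiotic receptor Ahr differed by 0.25 ± 0.15. Clock genes gave 0 of 19 (median -0.049), with Bhlhe41 at -0.14 ± 0.07 and Ciart at -0.20 ± 0.15, and the endoplasmic reticulum stress list 0 of 24, with the chaperone Canx at 0.15 ± 0.07.

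In the acute phase response hepatocytes secrete defence proteins under cytokines, and a few of its genes had the widest spreads over the HFD livers, while the median SD of a list member was 0.45, as it was for cholesterol synthesis. Lcn2, an iron-siderophore binder, ran from -4.42 to 3.45 (median -3.0) in Ala/Ala and from -4.32 to 3.05 (median -2.88) in Pro/Pro livers, and serum amyloid Saa2 from -3.99 to 3.06 (median -2.42) in Ala/Ala and from -3.76 to 2.92 (median -2.37) in Pro/Pro livers. The level of the list was 1.15 and 1.14 on the Ala/Ala arrays of Mouse77 and Mouse80 and 1.05 on the Pro/Pro array of Mouse143. On the other arrays it stayed at or below 0.05. These 3 arrays also led the first principal component of the 20 arrays, which held 23.7% of the variance (scores 0.489, 0.411 and 0.500, and at most 0.188 elsewhere). Their PPARα target level was -0.85, -0.52 and -0.75, their cytochrome P450 level -0.55, -0.33 and -0.47, and their macrophage level 0.50, 0.34 and 0.61. Elsewhere the PPARα target level went down to -0.47 (Mouse116) and the cytochrome P450 level to -0.29 (Mouse147), both close to these values. The macrophage level reached at most 0.18 (Mouse118) elsewhere.

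The differences of acute phase genes moved with the arrays of Mouse77, Mouse80 and Mouse143, of which 2 were labelled Ala/Ala and 1 Pro/Pro. Of 25 measured members 22 differences were above 0, with a median of 0.133 and 0 calls. Without these arrays 13 of 25 were above 0, with a median of 0.001. Those arrays were set apart after their values were seen, so this shift follows in part from the choice. Saa2 differed by 0.56 ± 0.94, Lcn2 by 0.50 ± 0.97 and Saa3 by 0.48 ± 0.62. Without the arrays of Mouse77, Mouse80 and Mouse143 they became 0.00 ± 0.82, -0.22 ± 0.75 and 0.01 ± 0.42. The interleukin 6 receptor Il6ra differed by 0.23 ± 0.21, with -0.07 and 0.09 at its other probe sets, and the orosomucoid Orm1 by 0.13 ± 0.15. Without these arrays the count of genes called on HFD remained 0.

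**Figure D5:**
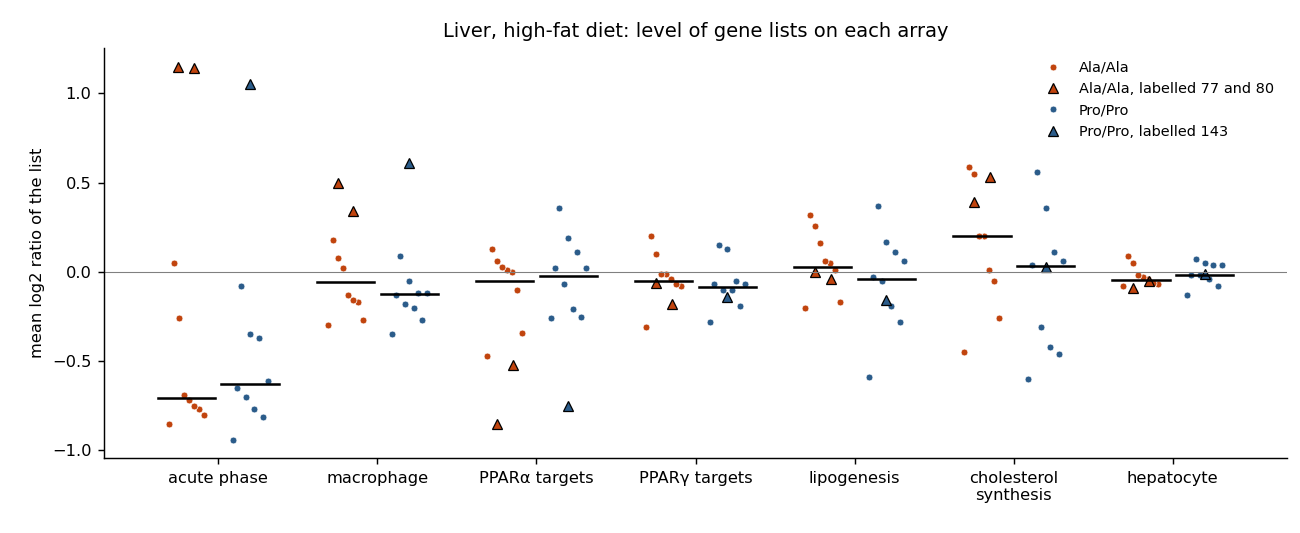
Mean log2 ratio of 7 gene lists on each HFD liver array (points), Ala/Ala to the left of Pro/Pro, with medians as bars and the arrays of Mouse77, Mouse80 and Mouse143 as triangles. These 3 arrays lie at 1.05 to 1.15 for the acute phase list and at -0.85 to -0.52 for PPARα targets, and the labelled groups overlap for every list shown.

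For the marker lists of other liver cells the labelled groups overlapped. The macrophage list gave 0 of 17 calls, with 13 differences above 0, 4 below 0 and a median of 0.039. Its level ran from -0.30 to 0.50 in Ala/Ala and from -0.35 to 0.61 in Pro/Pro livers. Its highest arrays were those of Mouse77, Mouse80 and Mouse143. Timd4, a receptor of resident Kupffer cells, differed by 0.33 ± 0.16, Marco, a scavenger receptor, by 0.38 ± 0.32 and the endotoxin receptor Cd14 by 0.45 ± 0.37, and Cd14 without these 3 arrays by 0.16 ± 0.18. Of the 4 differences below 0, that of Clec4f was -0.01 ± 0.09 and that of Trem2 -0.19 ± 0.18. Stellate cell and matrix genes gave 0 of 20 calls, with 8 differences above 0, up to 0.12, and a median of -0.066. Desmin, Des, ran from -0.35 to -0.04 in Ala/Ala and from -0.21 to 0.22 in Pro/Pro livers (difference -0.19 ± 0.06, adjusted p = 0.381), the collagenase Mmp2 differed by -0.31 ± 0.11 (adjusted p = 0.442), and lumican, Lum, by -0.25 ± 0.17.

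Cd79b, a chain of the B cell receptor, ran from -0.02 to 0.77 (median 0.25) in Ala/Ala and from -0.30 to 0.36 (median -0.07) in Pro/Pro livers, a difference of 0.34 ± 0.10. Its adjusted p of 0.372 was the smallest of any member of the 34 lists. The lymphocyte list otherwise gave 0 of 15 (median 0.005). Blood and neutrophil genes gave 0 of 7 calls, with 3 differences above 0, up to 0.21, and a median of -0.048. Of these, the red cell anion exchanger Slc4a1 was at -0.26 ± 0.10 (adjusted p = 0.452) and myeloperoxidase Mpo at -0.18 ± 0.08. Bile duct genes gave 0 of 7, with Sox9 at 0.25 ± 0.13, while another probe set gave -0.09, and Muc1 at -0.14 ± 0.09. Endothelial genes gave 0 of 12 and adipocyte genes 0 of 9. Transcripts of pancreas, gut, muscle and kidney gave 0 of 15 calls, with 4 differences above 0, up to 0.14, and a median of -0.06. Their level was -0.16 to 0.00 in Ala/Ala and -0.08 to 0.10 in Pro/Pro livers. The pancreatic carboxypeptidase Cpb1 was at -0.22 ± 0.07 (adjusted p = 0.388) and insulin, Ins2, at -0.20 ± 0.07 (adjusted p = 0.442).

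The lowest fitted difference of all genes was that of Erdr1, the erythroid differentiation regulator, which ran from -2.48 to 0.41 (median -1.37) in Ala/Ala and from -1.30 to 0.64 (median -0.04) in Pro/Pro livers. Although 5 of 10 Ala/Ala arrays lay below the whole Pro/Pro range, the difference of -1.21 ± 0.35 did not pass (adjusted p = 0.371), and on chow it was 0.18 ± 0.35. The peptide transporter Slc15a2 (-0.57 ± 0.37), the small GTPase Rab5c (-0.46 ± 0.32) and the lectin-like receptor Klra17 (-0.46 ± 0.19) were also among the 10 lowest, which include Apobec1, Fgf21, Angptl8, Pdk4, Acot1 and G0s2 given above. Another probe set gave 0.10 for Slc15a2 and -0.09 for Klra17. Erdr1 and Slc15a2 belong to the 50 genes that followed the animal in fat and muscle.

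The highest fitted difference was that of Clec2h, a C-type lectin, which ran from -1.67 to 1.98 in Ala/Ala and from -2.10 to 1.49 in Pro/Pro livers (difference 0.76 ± 0.53, adjusted p = 0.687). Cxcl13, a chemokine that attracts B cells, was above 0 on 10 of 10 Ala/Ala arrays (0.02 to 1.30) and on 7 of 10 Pro/Pro arrays (-1.35 to 0.59), a difference of 0.58 ± 0.28 (adjusted p = 0.554). A second Cxcl13 probe set gave 0.15. The carboxylesterase Ces2 differed by 0.51 ± 0.18 (adjusted p = 0.442) on HFD and by 0.49 ± 0.18 on chow. The retinoic acid hydroxylase Cyp26a1 differed by 0.51 ± 0.38 and the proton pump subunit Atp6v0d2 by 0.50 ± 0.34, with 0.22 at its other probe set.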

How the data were processed

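RNA of liver, fat and muscle was measured on an Affymetrix mouse array, with nominal dye channels, per the labels. The authors used Rosetta Resolver to set each array against a virtual pool of HFD Pro/Pro arrays and deposited log10 ratios for 32640 probe sets, per the labels. Over the 10 HFD Pro/Pro liver arrays 10 to the power of these ratios averaged 1 for 100% of probe sets (tolerance 0.001 in log10), which fixes pool, base and direction in liver. The sample descriptions instead describe pooled RNA of 10 wild-type samples. Without intensities, neither signal over background nor the authors' filter on expressed genes entered this work.

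Ratios were turned to log2. Of the probe sets 25508 have 1 symbol, 0 several and 7132 none. Symbols were updated with an NCBI gene table (21388 current, 4066 through a synonym, 54 kept), and each of 16643 genes was represented by its most variable probe set (variance over arrays of 1 tissue, without regard to group). limma 3.58.1 in R 4.3.3 fitted 40 liver arrays with 1 mean per group (36 residual degrees of freedom). Differences between tissues used all 12 groups and 112 arrays. The sample numbers name mice, of which 31 have 3 tissues. The fit was tested on simulated data, giving 6 false calls among 192. Alternatives were median centring, quantile normalization, other uses of probe sets, a variance filter, array weights, robust variance, only the groups compared, the methods' t-test, a false discovery rate of 0.20, mouse number as a block, and leaving out each HFD mouse. Alternatives chosen after seeing the data were the first residual component as a covariate, the liver-variance probe set, both diets together, leaving out each chow mouse, and leaving out the arrays of Mouse77, Mouse80 and Mouse143.

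The members, the 34 gene lists and the tests were chosen with earlier results of these data known. Genes named are Pparg, the 10 smallest p, the 10 largest rises and falls, up to 4 members with the smallest p of each list, and the genes called by genotype in fat or muscle. The text names part of these, and gives further list members as values.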

Additional observations from a re-analysis of the deposited data

Results flagged for a closer look

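Single arrays stood apart from the other 9 of their labelled group by Dixon's ratio (above 0.466) in 20 of 248 groups examined, where chance alone gives about 1 in 20. The Pro/Pro array of Mouse143 was highest for Saa3 (2.74), Cd14 (2.25), Cidec (0.93), Timd4 (0.89) and for the levels of the acute phase list (1.05), the neutrophil and blood list (0.69) and the macrophage list (0.61). In Ala/Ala livers the array of Mouse80 was highest for Baat (0.33) and the array of Mouse77 lowest for Atp5o (-0.27). Elsewhere in Ala/Ala, Tmcc1 reached 0.53 on the array of Mouse127, Angptl8 0.30 on Mouse149 and Rab5c -0.38 on Mouse116, while Bfsp2 went down to -0.39 on Mouse128 and the endothelial list level to -0.35 on Mouse117. In Pro/Pro livers Mmp2 (0.81) and Lum (1.06) were highest on the array of Mouse123, Ciart (0.91) on Mouse94, and the levels of the immediate early list (0.51) and the lipoprotein list (0.15) on Mouse147, and Erdr1 was lowest (-1.30) on Mouse131.

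The labelled genotype difference on HFD differed between liver and fat, by limma's test of that difference, for Apobec1 (liver minus fat -1.49), Klra17 (-0.97), Rmi2 (-0.43) and Hdhd5 (-0.42) on the lower side. Bid (1.05), Slc6a13 (0.99), Kdm5a (0.65), Dtna (0.64), Ddo (0.58), Tbrg4 (0.51), Bcl2l13 (0.48), Sod2 (0.41) and Ube2d1 (0.38) lay on the higher side. Between liver and muscle it differed for Retnla (liver minus muscle -0.65) and Hdhd5 (-0.57). All genes of this paragraph had been taken for a genotype difference in fat or muscle, or for a small p in HFD liver. The gaps between tissues therefore partly restate that choice and are given as a description.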

How the results depend on the processing

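The HFD count in liver was 0 under 11 alternatives, and 7 at a false discovery rate of 0.20. Leaving out each of the 20 HFD mice in turn gave 0 to 0 genes on HFD. Leaving out each chow mouse, added after seeing the data, gave 0 to 2 genes on chow (2 without Mouse109, 1 without Mouse155). The test between diets gave 0 to 0 over all 40 omissions. On chow the methods' t-test called 1 gene (Rasip1, named after its value was seen), and the rate of 0.20 gave 1 (Dlx2). With the first residual component as a covariate, added after seeing the data, 1 gene passed on HFD (Tbrg4, adjusted p = 0.0423), 41 on chow and 1 between diets (Tagln). This component was drawn from what remained after the group means were removed. The Tbrg4 difference therefore stayed at 0.43 with it, and such a covariate acts on the standard errors. What the component reflects was not tested. For the test between diets, fitting only the groups compared is the same fit. No paired analysis was possible because, within liver, each mouse gives 1 array and the groups hold different mice. Between tissues, mouse number as a replicate block gave 53 genes for liver minus fat and 4 for liver minus muscle, at a consensus correlation of -0.0064. Liver minus fat gave 27 genes with probe sets averaged and 914 at a rate of 0.20, and liver minus muscle 10 at that rate. Higher calls were 35 of 57 after median centring and 34 of 58 after quantile normalization, against 27 of 54. Over both diets, quantile normalization gave 6 genes against 19, and 11 of 19 calls were higher after median centring, against 8 of 19. Averaging probe sets, under which Lmnb2 did not pass over both diets (adjusted p = 0.136), gave -0.007 for Bcl2l13 and 0 for Ncor1, against 0.17 and 0.16 as reported. For Lcn2 the difference was -0.216 without Mouse77, Mouse80 and Mouse143, and each mouse left out in turn gave -0.089 to 1.094, below 0 without Mouse77 (-0.081) or Mouse80 (-0.089). With single mice left out Il6ra ranged over 0.099 to 0.324, Cpt1a over 0.032 to 0.14 and Lum over -0.324 to -0.122, none of them called. The number of arrays limits precision, and dim probe sets could not be told from bright ones.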

Other observations

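Besides Lcn2 and Saa2, genes with some of the widest spreads over the 20 HFD livers had wide ranges under both labels. Mt2, a metallothionein that binds zinc, ran from -3.41 to 3.14 in Ala/Ala and from -3.55 to 2.97 in Pro/Pro livers. Moxd1, a copper monooxygenase, ran from -3.45 to 3.27 in Ala/Ala and from -3.34 to 3.06 in Pro/Pro livers. Tff3, a trefoil peptide of mucous epithelia, ran from -3.71 to 1.6 in Ala/Ala and from -3.76 to 2.47 in Pro/Pro livers. Asparagine synthetase, Asns, an amino acid stress gene, ran from -2.15 to 1.64 in Ala/Ala and from -2.31 to 2.31 in Pro/Pro livers. The transcriptional repressor Bcl6 ran from -2.53 to 0.75 in Ala/Ala and from -2.77 to 1.41 in Pro/Pro livers, and Socs2, an inhibitor of growth hormone signalling, from -2.86 to 1.53 in Ala/Ala and from -1.94 to 1.67 in Pro/Pro livers. The groups overlapped for all 6 genes, which were picked for their spread, and 0 were called. Mt2, Asns, Bcl6 and Socs2 also belong to the fixed lists, while Moxd1 and Tff3 are in none.

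Members of a list moved together to different degrees over the 20 arrays, with group means removed. The median pairwise r was 0.75 for the acute phase list, 0.71 for cholesterol synthesis, 0.54 for PPARα targets, 0.36 for de novo lipogenesis and 0.07 for PPARγ targets, given as a description of arrays that share 1 pool.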
